A study of Homo sapiens with 6 samples.

Results

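The kinesin superfamily was followed at the mRNA level in MDA-MB-453, a cell line established from a HER2+ breast cancer, after siRNA against *DUSP6* or scrambled siRNA. Its members were taken by gene symbol alone, as KIF or KIFC followed by a number and, where present, a subfamily letter, and this rule found 41 of the 22807 genes in the deposited table. The comparison set 3 libraries with *DUSP6* siRNA (the labels' *DUSP6* knockdown) against 3 with scrambled siRNA (labelled wild type), all from cells grown in the same serum-containing medium without drug treatment named. The legend of the study's figure on this experiment gives 3 different siRNAs per group, delivered by transient lipid transfection, which lowers rather than removes a target. The sources used here do not tie a given siRNA to a given library. Labels do not say whether replicates came from separate cultures, so p-values measure the spread between these libraries, which may be technical in part. The question asked of the kinesins was how far those that work in the spindle differed from those that carry cargo.

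Kinesins are motor proteins that turn ATP hydrolysis into movement along microtubules or into disassembly of microtubule ends. One set of them builds the mitotic spindle, moves chromosomes and closes the cell at cytokinesis, and its genes are mostly transcribed late in the cell cycle, with many of their promoters carrying CCAAT boxes and a cell cycle homology region (CHR) that the DREAM and MuvB complexes and NF-Y bind. Another set carries vesicles, mitochondria, RNA and ciliary cargo in cells that may not be dividing at all, and its members assemble with light chains and adaptors that choose the cargo. Division into 13 mitotic, 17 transport and 11 other kinesins followed these textbook roles. *KIF2A*, which works in neurons and also at spindle poles, was placed among the other kinesins. *KIF2B*, a further mitotic kinesin, was not analysed here.

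Normalized values, which are the authors' reads per gene scaled for library size and composition, were used throughout. The libraries held 45546981 to 85729785 reads assigned to genes. *DUSP6* itself, the target of the siRNA, stood at 209, 110 and 114 in the scrambled libraries and at 39.4, 24.5 and 35.2 in the *DUSP6* siRNA libraries, which left 22.9% of the scrambled mean (log2 fold change -2.05, standard error 0.25, limma adjusted p = 3.09e-04). All 10 luminal epithelial markers examined were present, at 47.4 to 1068 in every library, and 9 of the 10 markers of other cell types in the table were under 1 in every library. The exception was *COL1A1*, a fibrillar collagen gene, at 80.7 to 105 in scrambled and 162 to 192 in *DUSP6* siRNA libraries. Summed luminal markers ranged from 4277 to 5716 with scrambled and from 3100 to 3334 with *DUSP6* siRNA, while summed markers of other cell types ranged from 82.5 to 107 and from 163 to 194. These shifts moved with the kinesin changes below, and their part in them was not tested.

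Of the 41 kinesins, 31 reached a mean normalized value of 1 across the 6 libraries and were tested, namely all 13 mitotic, 12 of 17 transport and 6 of 11 other kinesins. Among the 31, 17 were lower and 3 higher with *DUSP6* siRNA at a limma adjusted p under 0.05. Among all 12862 genes tested by the same rule, 24.7% were lower, 19.7% were higher and 44.5% were called in either direction. Among the spindle motors, 10 of 13 mitotic kinesins were lower and 0 higher, against 5 lower and 1 higher of 12 transport kinesins and 2 lower and 2 higher of 6 other kinesins. The highest mitotic log2 fold change was -0.15 both in limma and in edgeR's quasi-likelihood test, so 0 higher follows at any threshold. The edgeR test called 10 lower. The median log2 fold change was -0.50 over the mitotic, -0.11 over the transport and 0.14 over the other kinesins tested, beside -0.01 over all genes tested. *KIF26B*, 1 of the 3 kinesins called higher, passed the filter only through the *DUSP6* siRNA libraries. The median of the other kinesins lies between *KIF2A* (-0.06) and *KIF9* (0.34), and without *KIF26B* it would be that of *KIF2A*. The sign of the transport median depended on the processing, as it was 0.030 without a filter and 0.082 after quantile normalization, and -0.26 with a mean of at least 10.

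**Figure D1:**
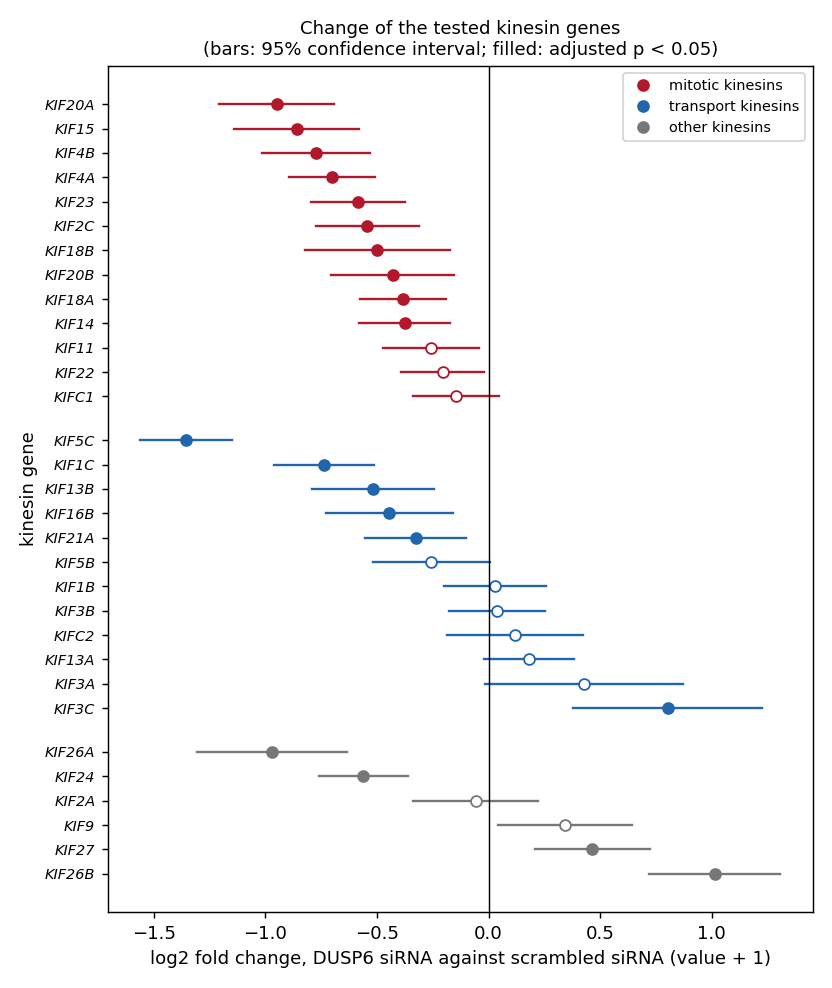
Log2 fold change of the 31 tested kinesin genes, *DUSP6* siRNA against scrambled siRNA, on the log2(value + 1) scale of the limma fit. Points are estimates from 3 libraries per group, bars are 95% confidence intervals, filled points have an adjusted p under 0.05, and colors mark mitotic, transport and other kinesins. All 13 mitotic kinesins lie left of 0, whereas transport kinesins run from -1.36 for *KIF5C* to 0.80 for *KIF3C*.

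The separation showed in each library. In all 13 mitotic kinesins every *DUSP6* siRNA library was below every scrambled library, which was so for 31.1% of all genes tested, and the opposite order held for 26.7% of all genes. This rests on the placing of *KIF2A* among the other kinesins. Its groups overlapped and it was not called (log2 fold change -0.06, limma adjusted p = 0.726). Among the transport kinesins, 5 of 12 had all *DUSP6* siRNA libraries lower, 2 had all of them higher, and in 5 the groups overlapped. The median difference of the mitotic kinesins from their scrambled mean was 0.10, -0.03 and -0.07 on the log2 scale in the scrambled libraries and -0.43, -0.55 and -0.52 in the *DUSP6* siRNA libraries. The transport kinesins stood at 0.06, 0.07 and -0.02 and at -0.21, -0.05 and -0.13 by the same measure, which left their libraries closer together. Since RNA came from whole cultures, fewer cells in mitosis and less kinesin mRNA per cell cannot be told apart.

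Promoters of most mitotic kinesins shared short sequences that the choice by symbol did not use. The windows searched ran from 250 bases before to 50 bases after the RefSeq start site on GRCh38.p14 and were on hand for 33 of the 41 kinesins. In these, both strands were searched for CCAAT, for the CHR words TTTGAA and TTCGAA, and for the E2F words TTTCCCGC, TTTGGCGC, TTTCGCGC and TTTGCCGC. The stretches from base -110 to base 19, with the start site at 0, are printed for the 4 mitotic kinesins with the lowest fold changes because they show how these words sit near the start. All 4 read 5′ to 3′ on the plus strand, and capitals mark every match in either orientation, so that ATTGG is CCAAT on the other strand.
KIF20A (chr5:138179002-138179131): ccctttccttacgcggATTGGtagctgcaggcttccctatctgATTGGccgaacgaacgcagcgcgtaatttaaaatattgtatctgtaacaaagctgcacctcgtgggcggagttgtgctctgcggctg
KIF15 (chr3:44761684-44761813): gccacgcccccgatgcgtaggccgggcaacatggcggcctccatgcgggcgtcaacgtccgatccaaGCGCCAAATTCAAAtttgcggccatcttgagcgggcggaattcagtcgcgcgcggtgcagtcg
KIF4B (chr5:155013645-155013774): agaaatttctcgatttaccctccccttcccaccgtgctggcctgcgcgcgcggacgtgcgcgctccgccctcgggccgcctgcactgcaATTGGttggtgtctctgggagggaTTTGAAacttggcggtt
KIF4A (chrX:70289994-70290123): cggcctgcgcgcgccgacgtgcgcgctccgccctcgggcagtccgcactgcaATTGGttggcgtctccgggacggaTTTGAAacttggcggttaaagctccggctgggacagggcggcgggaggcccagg

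*KIF20A* held 2 CCAAT words and none of the CHR words searched. *KIF15* held an E2F word directly followed by a CHR word, 43 and 35 bases before the start site, and both lie on the other strand. In *KIF4A* and its near copy *KIF4B* a CCAAT word preceded a CHR word by the same 24 bases, at -58 and -34 in *KIF4A* and at -21 and 3 in *KIF4B*. A further CCAAT word of *KIF4B*, at -202, lies outside the printed stretch. The last 150 bases of the *KIF4B* window, moved by 37 bases, were identical to *KIF4A* at 136 positions (90.7%).

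A CHR word was found in 11 of 13 mitotic promoters (84.6%), in 1 of 12 transport promoters (8.33%, *KIF5B*) and in 1 of 8 other promoters (12.5%, *KIF24*). By comparison, 16.7% of the promoters of 27305 genes and 11.2% of the 10127 promoters of genes tested held one. CCAAT was present in 84.6% of mitotic, 33.3% of transport and 37.5% of other kinesin promoters, with 35.7% among all promoters. Both words occurred together in 10 of 13 mitotic promoters (76.9%) against 6.63% of all promoters. The E2F words were rare in every set, with 1 mitotic promoter (*KIF15*), 0 of 12 transport promoters, 1 other promoter (*KIF25*) and 3.34% of all promoters. In the mitotic kinesins CHR words began between 55 bases before (*KIF23*) and 30 bases after (*KIF20B*) the start site, whereas that of *KIF5B* lay 140 bases before it. *KIF11*, *KIF22* and *KIFC1*, the mitotic kinesins that were not called lower, each held both a CHR and a CCAAT word. *KIF2C*, which was called lower, held none of the words searched. *KIF4A* and its near copy *KIF4B* are counted separately in these shares. No window was on hand for the transport kinesins *KIF5A*, *KIF13B*, *KIF21B*, *KIFC2* and *KIFC3* or for *KIF19*, *KIF26B* and *KIF27*. The 12 transport promoters are therefore not those of the 12 transport kinesins tested, and they include the untested *KIF1A* and *KIF17*. A match describes letters in the window and is no record of a bound factor.

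**Figure D2:**
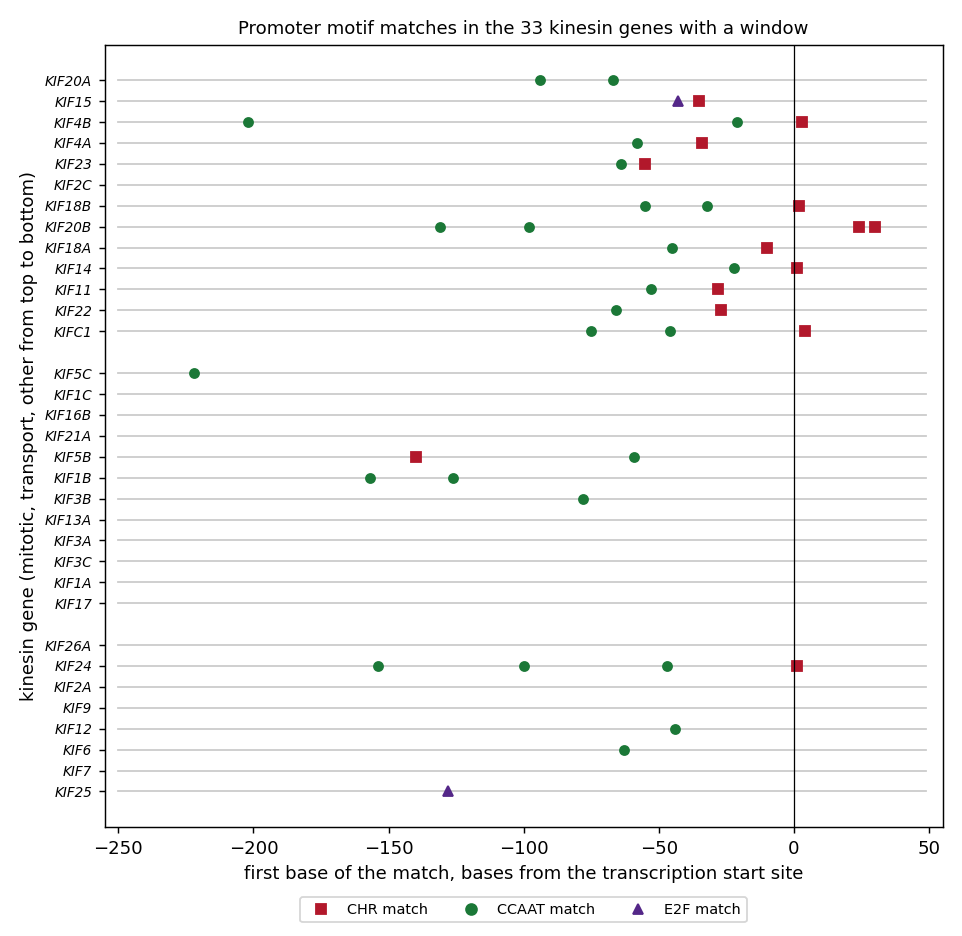
Positions of CHR, CCAAT and E2F words in the promoter windows of the 33 kinesins with a window, from 250 bases before to 50 bases after the start site, with 1 line per gene and 1 marker at the first base of each match on either strand. Squares for CHR gather around the start site in 11 of 13 mitotic kinesins and occur in 1 of 12 transport and 1 of 8 other kinesins.

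Motors of the central spindle and of cytokinesis were lower throughout, with all 6 of them called. *KIF20A*, which brings the chromosomal passenger complex to the central spindle, had normalized values of 108, 92.0 and 92.0 with scrambled siRNA and 57.0, 45.5 and 47.4 with *DUSP6* siRNA. This was the deepest fall of any mitotic kinesin, to 51.4% of the scrambled mean (log2 fold change -0.95, standard error 0.11, limma adjusted p = 2.75e-04). The gene (Entrez 10112) lies on chromosome 5 from 138179112 to 138187723 of GRCh38.p14. *KIF23*, the motor subunit of centralspindlin with *RACGAP1*, went from 125, 122 and 106 to 80.1, 76.2 and 78.0 (log2 fold change -0.58, standard error 0.09, adjusted p = 0.00122). *KIF4A*, a chromokinesin that sets the length of midzone microtubules with *PRC1*, went from 98.2, 88.6 and 88.0 to 57.0, 55.3 and 55.4 (log2 fold change -0.70, standard error 0.09, adjusted p = 3.16e-04). In each of these the highest *DUSP6* siRNA library stayed below the lowest scrambled library.

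*KIF4B*, on chromosome 5 from 155013755 to 155018141, is an intronless copy of the X-linked *KIF4A*, as its transcript of 4387 bases fills its whole span. It was read at 17.0, 15.9 and 14.3 with scrambled and 8.80, 8.98 and 8.56 with *DUSP6* siRNA (log2 fold change -0.77, standard error 0.11, adjusted p = 5.81e-04). Their transcripts were identical at 95.6% of 4338 aligned bases, so reads could be split between them and the *KIF4B* value is uncertain. *KIF4B* was read at 17.3%, 18.0% and 16.2% of *KIF4A* in scrambled libraries and at 15.4%, 16.2% and 15.5% in *DUSP6* siRNA libraries, a ratio that did not differ beyond the spread (two-sided exact permutation p = 0.2, where 0.1 is the smallest that 3 against 3 allow). Without *KIF4B*, 9 of 12 mitotic kinesins were lower.

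*KIF14*, which binds citron kinase and *PRC1* at the midbody, fell less, from 68.0, 70.5 and 61.8 to 52.9, 50.6 and 49.9 (log2 fold change -0.38, standard error 0.09, limma adjusted p = 0.00897). *KIF20B*, a relative of *KIF20A* that acts late in cytokinesis, fell from 127, 94.4 and 94.9 to 77.4, 78.3 and 76.0 (log2 fold change -0.43, standard error 0.12, adjusted p = 0.0188). Its scrambled replicate 1 stood well above the other two. The *KIF14* call was lost without *DUSP6* siRNA replicate 3 (adjusted p = 0.0518). The *KIF20B* call was lost without *DUSP6* siRNA replicate 1, 2 or 3, at adjusted p of 0.0575, 0.0610 and 0.0661.

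Among the motors that push or pull the spindle poles, *KIF15* was called and the other two were not. *KIF15*, which can keep spindles bipolar beside *KIF11*, fell from 60.8, 50.9 and 44.5 to 29.1, 26.2 and 29.0, or 53.9% of the scrambled mean (log2 fold change -0.86, standard error 0.12, limma adjusted p = 7.19e-04). *KIF11*, the tetrameric motor that slides the poles apart and is the target of antimitotic inhibitors, read 135, 111 and 125 with scrambled and 105, 102 and 102 with *DUSP6* siRNA (log2 fold change -0.26, standard error 0.09, adjusted p = 0.0515). Its groups did not overlap, yet it lay on the edge of the threshold and was called when scrambled replicate 2 was left out (adjusted p = 0.0158). *KIFC1*, a minus-end motor that focuses poles and clusters extra centrosomes, read 79.5, 80.7 and 73.9 and then 73.3, 68.4 and 69.3. Its log2 fold change of -0.15 (95% confidence interval -0.34 to 0.05, adjusted p = 0.188) was the smallest of the mitotic kinesins. After quantile normalization *KIF11* stood at -0.14 and *KIFC1* at -0.053. Whether *KIF15* differed from *KIF11* or *KIFC1* in its change was not tested.

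Of the 4 motors of chromosomes and of microtubule ends, 3 were called lower. *KIF2C*, the centromeric depolymerase that corrects wrong attachments, fell from 107, 85.1 and 95.7 to 67.4, 65.1 and 63.4 (log2 fold change -0.54, standard error 0.10, limma adjusted p = 0.00278). *KIF18A*, which damps the movement of chromosomes at the plate, fell from 51.9, 51.0 and 54.0 to 41.3, 38.9 and 39.3 (log2 fold change -0.38, standard error 0.09, adjusted p = 0.00646). *KIF18B*, which trims astral microtubules, fell from 64.3, 50.5 and 66.3 to 49.8, 36.3 and 41.4 (log2 fold change -0.50, standard error 0.14, adjusted p = 0.0205). Its highest *DUSP6* siRNA library came close to its lowest scrambled library, and the call was lost without scrambled replicate 1 (adjusted p = 0.0647) and without *DUSP6* siRNA replicate 2 (0.0921) or 3 (0.0653). *KIF22*, a chromokinesin that binds chromosome arms, read 191, 204 and 201 and then 181, 169 and 168 (log2 fold change -0.21, 95% confidence interval -0.39 to -0.02, adjusted p = 0.0685), and after quantile normalization its log2 fold change was -0.033 (adjusted p = 0.762).

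**Figure D3:**
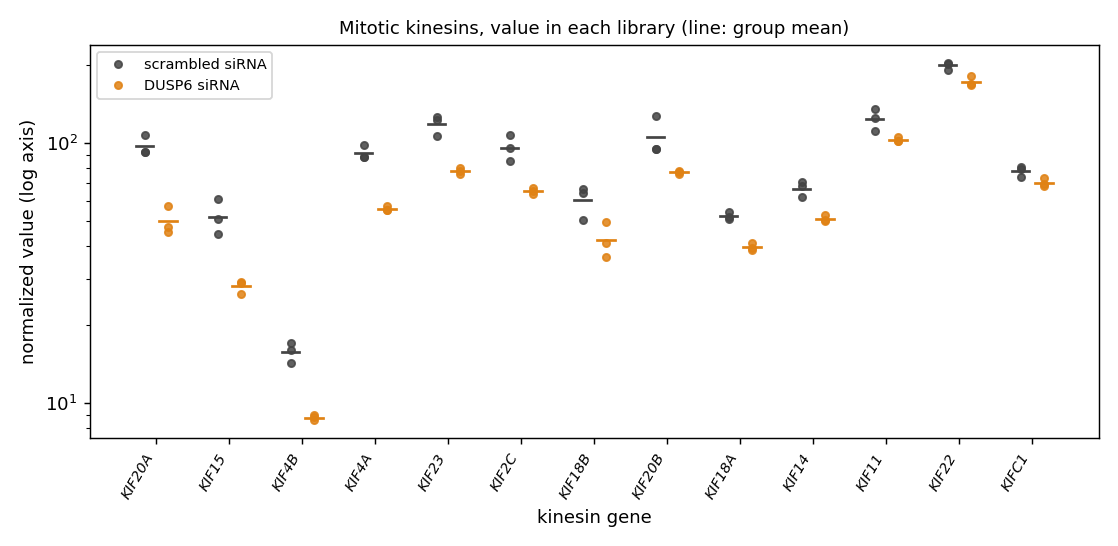
Normalized value of the 13 mitotic kinesins in each library on a log axis, with gray points for the 3 scrambled and orange points for the 3 *DUSP6* siRNA libraries and a line at each group mean. In each gene every orange point is below every gray point, with the widest distance between means in *KIF20A* and the narrowest in *KIFC1*.

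Transport kinesins were called in both directions. In kinesin-1, the heavy chains carry mitochondria, vesicles and RNA granules. *KIF5C* had the lowest fold change of the 31 tested kinesins, and *KIF5B* was not called. Their changes were compared only through the *KIF5C* share of the kinesin-1 heavy chain level below. *KIF5C* (Entrez 3800, chromosome 2 from 148875227 to 149026759), known best from neurons, had values of 122, 125 and 140 with scrambled and 52.2, 47.7 and 49.7 with *DUSP6* siRNA. That left 38.6% of the scrambled mean (log2 fold change -1.36, standard error 0.09, limma adjusted p = 1.28e-05). *KIF5B*, the ubiquitous heavy chain, read 278, 355 and 362 with scrambled and 261, 289 and 276 with *DUSP6* siRNA, where a low scrambled replicate 1 made the groups overlap. Its log2 fold change was -0.26 (95% confidence interval -0.52 to 0.00442, adjusted p = 0.0995), and it was called without scrambled replicate 1 (-0.38, adjusted p = 0.0131). *KIF5A*, the third heavy chain, stayed under 1 in every library, with a highest value of 0.881.

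Per kilobase of transcript, *KIF5C* made up 27.1%, 23.0% and 24.6% of the summed kinesin-1 heavy chain level in the scrambled libraries and 14.4%, 12.2% and 13.2% in the *DUSP6* siRNA libraries. The mean share was 24.9% ± 2.06 (SD, n = 3) and 13.3% ± 1.11 (SD, n = 3), without overlap (two-sided exact permutation p = 0.1, the smallest possible). Of the kinesin light chains that pair with these motors, only *KLC4* was called. *KLC4* rose by 0.46 (limma adjusted p = 0.0104). *KLC1*, *KLC2* and *KLC3* were not called, with log2 fold changes of -0.02, -0.08 and 0.17. Their 95% confidence intervals were -0.30 to 0.26, -0.27 to 0.11 and -0.10 to 0.44, so changes in either direction stay possible. The values of *KLC1*, *KLC3* and *KLC4* are uncertain, since each shares exon sequence with a gene on the opposite strand. The shares are 29.9% of *KLC1* with *XRCC3*, 14.6% of *KLC3* with *ERCC2* and 7.57% of *KLC4* with *CUL7*.

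Kinesin-3 motors, which carry vesicles and endosomes, held the other large fall. *KIF1C*, a fast carrier of dense vesicles and integrins, fell from 299, 242 and 271 to 169, 157 and 159 (log2 fold change -0.74, standard error 0.10, limma adjusted p = 5.10e-04). *KIF13B*, which carries phosphoinositide-bearing vesicles, fell from 24.6, 26.2 and 19.9 to 16.6, 16.2 and 15.3 (log2 fold change -0.52, adjusted p = 0.00801). *KIF16B*, a motor of early endosomes, fell from 34.5, 31.8 and 25.4 to 22.1, 23.2 and 20.8 (log2 fold change -0.44, adjusted p = 0.0188). The *KIF16B* call was lost without scrambled replicate 1 (adjusted p = 0.0547) and without *DUSP6* siRNA replicate 1 (0.0600) or 3 (0.0805). *KIF1B* and *KIF13A* of the same family were not called, with 95% confidence intervals of -0.20 to 0.26 and of -0.02 to 0.38 for their log2 fold changes, and *KIF1A* reached at most 0.309.

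Kinesin-2, the anterograde motor of cilia and of several vesicles, did not fall. *KIF3C* rose from 0.967, 2.03 and 1.45 to 2.89, 4.28 and 2.77, the only transport kinesin called higher (log2 fold change 0.80, standard error 0.19, limma adjusted p = 0.00798). Its levels were low, and the value of 1 added before the logarithm reduces its fold change, which edgeR put at 1.18 on the log2 scale. *KIFAP3*, the non-motor subunit that joins *KIF3A* and *KIF3B* into the working trimer, rose from 5.94, 6.82 and 6.80 to 13.0, 20.2 and 16.7 (log2 fold change 1.21, standard error 0.15, adjusted p = 3.78e-04). The 2 motor subunits of the trimer, named here after their values were seen, were not called. *KIF3A* read 37.2, 38.1 and 23.3 and then 37.2, 52.6 and 42.2 (log2 fold change 0.43, 95% confidence interval -0.01 to 0.87, adjusted p = 0.104), and *KIF3B* differed by 0.04 (adjusted p = 0.768). *KIF17*, the homodimeric member, reached at most 0.303.

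The remaining transport motors were *KIF21A*, *KIF21B*, *KIFC2* and *KIFC3*. *KIF21A*, which restrains microtubule growth at the cell cortex, fell from 96.2, 80.3 and 82.4 to 65.4, 73.0 and 67.1 (log2 fold change -0.33, limma adjusted p = 0.0260). That call was lost without scrambled replicate 1 (adjusted p = 0.0621) and without *DUSP6* siRNA replicate 1 (0.104) or 3 (0.0993), and it was not made after quantile normalization (0.0801). *KIFC2*, a minus-end-family motor, read 85.1, 119 and 111 and then 125, 111 and 104, with the groups overlapping (log2 fold change 0.12, adjusted p = 0.505). *FOXH1* shares 17.8% of the *KIFC2* exon sequence on the opposite strand, so its value is uncertain. *KIF21B* and *KIFC3* were under the filter, with highest values of 0.372 and 1.09. With *DUSP6* siRNA replicate 1 or 3 left out, 3 rather than 5 transport kinesins were lower.

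**Figure D4:**
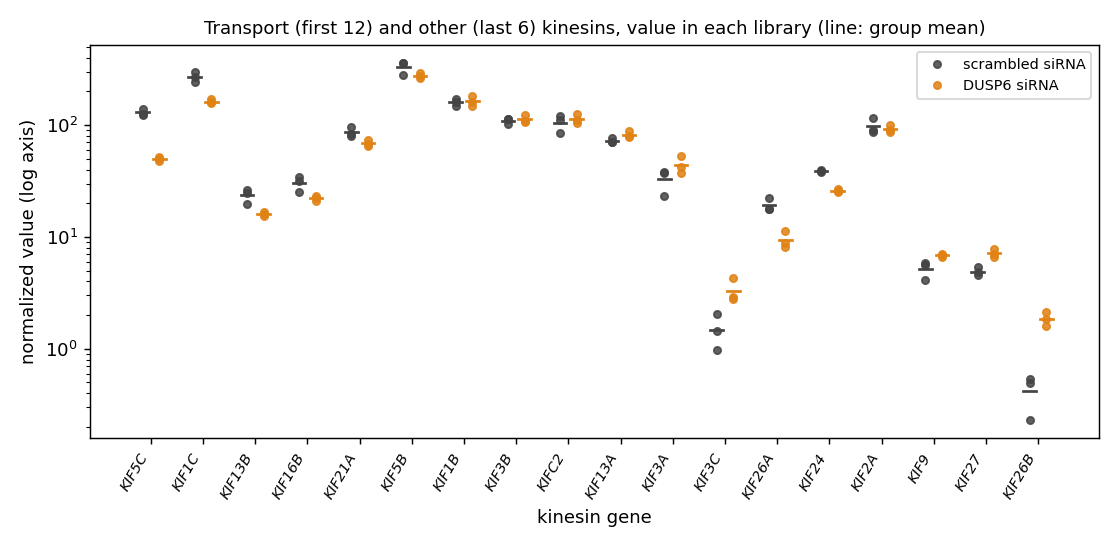
Normalized value of the 12 tested transport kinesins and, to their right, the 6 tested other kinesins in each library on a log axis, with gray points for scrambled and orange points for *DUSP6* siRNA libraries and a line at each group mean. *KIF5C* and *KIF1C* fall clear of their scrambled libraries, *KIF1B*, *KIF3B*, *KIFC2* and *KIF2A* overlap, and *KIF3C* and *KIF26B* rise from low levels.

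Of the kinesins placed in neither main set, 2 fell. *KIF26A* (Entrez 26153, chromosome 14 from 104138587 to 104180894), an atypical member without motor activity that restrains growth factor signaling, fell from 17.7, 17.7 and 22.5 to 11.3, 8.83 and 8.06. That was 48.7% of the scrambled mean (log2 fold change -0.97, standard error 0.15, limma adjusted p = 9.88e-04). *KIF24*, a centriolar microtubule depolymerase that restrains cilium formation in cycling cells, fell from 38.4, 39.3 and 38.3 to 26.8, 25.3 and 25.7 (log2 fold change -0.56, adjusted p = 0.00111). Among the 8 kinesins outside both main sets that had a promoter window, it alone held a CHR word. That word was at base 1 from the start site of its window, which lies inside the gene's span. Both falls were larger than the spread, with no overlap between groups.

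*KIF27* and *KIF26B* rose. *KIF27*, a relative of the ciliary and Hedgehog kinesin *KIF7*, went from 4.52, 5.35 and 4.81 to 6.57, 7.77 and 7.06 (log2 fold change 0.46, standard error 0.11, limma adjusted p = 0.0101). *KIF26B*, the paralog of *KIF26A*, went from 0.491, 0.537 and 0.229 to 1.84, 1.60 and 2.13 (log2 fold change 1.01, standard error 0.13, adjusted p = 3.98e-04). *KIF26B* passed the filter only through the *DUSP6* siRNA libraries, and edgeR put its log2 fold change at 2.18. *KIF2A*, a depolymerase used in neurons and at spindle poles alike, and *KIF9* were not called, at -0.06 and 0.34, and their values are uncertain, with 18.7% and 14.8% of exon sequence shared with *DIMT1* and *KIF9-AS1* on the opposite strand. *KIF6*, *KIF7*, *KIF12*, *KIF19* and *KIF25* stayed under 1 in every library, with highest values of 0.201, 0.964, 0.0121, 0.0245 and 0.0404. The value of *KIF7* is uncertain, with 10.8% of its exon sequence shared with *TICRR*.

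Levels of single kinesins were ranked only per kilobase of MANE Select transcript. *KIF22* was the most abundant kinesin, at 95.6 with scrambled and 82.8 with *DUSP6* siRNA, followed by *KIF5B* at 56.5 and 47.0. *KIF1C* (34.2 in scrambled libraries), *KIF2C* (33.6), *KIFC1* (32.6), *KIF23* (32.2), *KIFC2* (32.1) and *KIF20A* (31.4) came next, and their scrambled ranges overlapped, so their order is not resolved. Against this, with *DUSP6* siRNA *KIFC2* was at 34.6, *KIFC1* at 29.4, *KIF2C* at 22.8, *KIF23* at 21.3, *KIF1C* at 20.4 and *KIF20A* at 16.1. *KIF5C* went from rank 11 to rank 19 of the 41 kinesins, at 18.6 and 7.17 per kilobase. Summed values were not divided by transcript length, so they compare the siRNA groups within a class and not the classes with each other. Those of the 13 mitotic kinesins were 1156 ± 66.7 (SD, n = 3) with scrambled and 842.5 ± 32.9 with *DUSP6* siRNA, or 72.9%. Those of the 12 transport kinesins were 1353 ± 17.3 and 1112 ± 46.0, or 82.2%. Without *KIF5B*, *KIF5C* and *KIF1C*, a set chosen after their values were seen, the transport sum was 621 ± 24.3 and 625 ± 40.0.

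**Figure D5:**
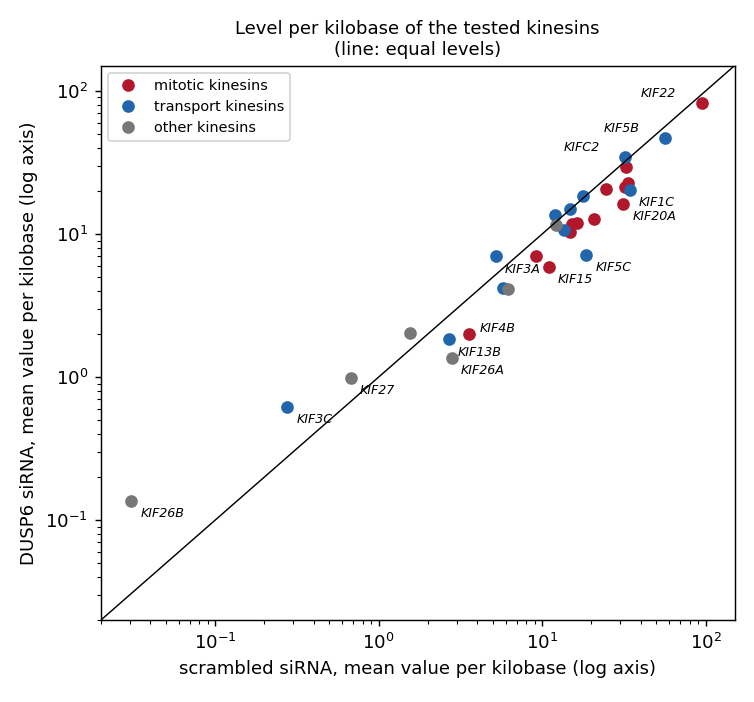
Mean normalized value per kilobase of transcript for the 31 tested kinesins, scrambled siRNA on the x axis and *DUSP6* siRNA on the y axis, both log axes, with a line where levels are equal and colors for mitotic, transport and other kinesins. All mitotic kinesins lie below the line, *KIF5C* at 18.6 and 7.17 lies farthest below it among the abundant kinesins, and *KIF3C* and *KIF26B* lie above it at low levels.

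Genes that work with the mitotic kinesins were lower alongside them. Of 20 spindle and cytokinesis partners, 15 were lower and 0 higher in limma, against 24.7% lower and 19.7% higher among all genes tested, with a median log2 fold change of -0.54. The highest log2 fold change of the partners was -0.019 in limma and -0.022 in edgeR's test, so 0 higher follows at any threshold. By edgeR 15 were lower. The 2 largest falls were in *TPX2*, which activates Aurora A on the spindle and regulates *KIF11* and *KIF15* (log2 fold change -0.87, limma adjusted p = 6.98e-04), and in *CENPE*, a kinetochore kinesin that its symbol leaves outside the KIF rule (-0.84, adjusted p = 4.21e-04). *TPX2* read 270, 227 and 193 and then 133, 118 and 122, and *CENPE* read 142, 122 and 108 and then 70.7, 68.0 and 66.2. Per library, the partners' median difference from the scrambled mean was -0.46, -0.56 and -0.56 in the *DUSP6* siRNA libraries, beside -0.43, -0.55 and -0.52 for the mitotic kinesins. *AURKB*, the Aurora kinase that travels with *KIF20A*, was not called (log2 fold change -0.12, adjusted p = 0.407).

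Cargo adaptors and the opposing motor were called in both directions, and the shares of 24.7% lower and 19.7% higher among all genes tested are the background for their counts too. Of the 19 kinesin light chains and adaptors tested, 2 were lower and 5 higher, with a median log2 fold change of -0.02. After *KIFAP3*, the largest rise was in *MAPK8IP2*, a JNK scaffold that links *KIF5* motors to cargo (0.51, limma adjusted p = 0.0117), and the falls were in *HAP1* (-0.40, adjusted p = 0.0386) and *FEZ2* (-0.27, adjusted p = 0.0494). Of the 24 genes tested for cytoplasmic dynein, the minus-end motor, and its activator dynactin, 5 were lower and 2 higher, with a median of -0.01, so the share lower was near the background. *NDE1*, a dynein regulator at kinetochores, fell by 1.07 on the log2 scale (adjusted p = 2.30e-04) with 12.9% of its exon sequence shared with *MYH11*, and *DCTN1* fell by 0.56 (adjusted p = 0.00123) with 5.38% shared with *DCTN1-AS1*, so both values are uncertain. *DYNLL2* rose by 0.64 (adjusted p = 5.63e-04) and *HOOK3* by 0.38 (adjusted p = 0.0272). Of the tubulins, which form the track itself, 8 of 14 tested were lower and 1 was higher, with a median of -0.65. *TUBB2B* fell by 1.09 (adjusted p = 0.00635) and *TUBA1C* fell by 1.06 (adjusted p = 4.88e-04), and *TUBB3* rose by 0.49 (adjusted p = 0.00865). The scrambled libraries of *TUBB2B* were uneven, at 42.3, 39.0 and 20.0, beside 15.9, 13.7 and 14.2 with *DUSP6* siRNA. *TUBB3*, the single tubulin called higher, passed the filter only through the *DUSP6* siRNA libraries, at 0.632 to 0.892 in the scrambled and 1.28 to 1.62 in the *DUSP6* siRNA libraries. *TUBA1C* shares 7.75% of its exon sequence with *TUBA1A*, and reads of near-identical tubulin copies could be split among them, so tubulin values are uncertain.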

How the data were processed

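RNA from 6 libraries of MDA-MB-453 cells, 3 per group, was prepared by the study with the TruSeq Stranded mRNA kit. The authors aligned reads to hg38 and assigned them to RefSeq gene models with Rsubread 2.0.0 at its default settings, which count without regard to strand, and deposited a table of normalized signal, linear and not logged, for each gene in each library. The submitters' processing notes name bcl2fastq and edgeR. Reads of overlapping genes on opposite strands can therefore not be told apart, and named genes with over 5% of exon sequence shared with a neighbor were called uncertain. Every deposited value was a whole multiple of the worth of 1 read in its library (100% within 0.001), and the implied scaling matched edgeR's TMM. Depth was 45546981 to 85729785 reads, and the lowest read number behind a mitotic kinesin value was 435. Some low genes that were called rest on few reads, at the lowest 19 for *KIF26B*, 33 for *TUBB3* and 65 for *KIF3C*.

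The 12862 of 22807 genes with a mean of at least 1 were fitted with limma 3.58.1 (R 4.3.3, eBayes with a trend) on log2(value + 1), with Benjamini-Hochberg adjustment over all of them, and called at an adjusted p under 0.05. The fold changes are on that scale and understate changes of low genes. Single ratios were compared by two-sided exact permutation tests. limma and edgeR 4.0.16 were checked on simulated data. The members and lists were chosen with earlier results of these data known. All tested mitotic kinesins were named, with other kinesins that were called or among the 8 highest per kilobase, and from each further list the 2 largest called changes per direction. Other genes were named after their values were seen, among them *AURKB*, *KLC1*, *KLC2*, *KLC3*, *KLC4*, *KIF1B*, *KIF13A*, *KIF2A* and *KIF9*. Positions and promoter windows are RefSeq on GRCh38.p14, with the outermost window per gene, and transcript lengths are MANE Select of GENCODE v44. The 14 alternatives were another pseudocount (0.1), no filter, a mean of at least 10, quantile normalization, median of ratios, no trend, a replicate block, edgeR on whole reads, and leaving out each library. Protein sequences were not used here.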

Additional observations from a re-analysis of the deposited data

How the results depend on the processing

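The mitotic kinesins kept their direction under the 14 alternatives, with 7 to 11 of 13 called lower and 0 higher in limma and in edgeR, and a median log2 fold change from -0.57 to -0.42. Over all kinesins, 15 to 22 were called and 12 to 18 were lower. The transport kinesins depended more on the processing. Their median was 0.030 without a filter, -0.26 with a mean of at least 10, where 11 of them were left, and 0.082 after quantile normalization, and it ranged from -0.17 to -0.09 when single libraries were left out. The number called lower ranged from 3 to 5 when single libraries were left out. Without a filter 6 were lower, which added *KIF21B* (-0.21, limma adjusted p = 0.0175). The number called higher was 2 without a filter, which added *KIF1A*, 2 after quantile normalization, which added *KIF13A* (0.28, limma adjusted p = 0.0315), and 0 with a mean of at least 10. The last setting also left 0 kinesins higher in all and 2 other kinesins called, because *KIF3C*, *KIF27* and *KIF26B* fell under it. Under quantile normalization *KIF11*, *KIF22* and *KIFC1* shrank to -0.14, -0.033 and -0.053. *KIF5B* changed sign after quantile normalization, at 0.00396, and *KIFC2* did without scrambled replicate 1, at -0.027 (-0.027 to 0.21 over the libraries left out). The cause of the shifts under quantile normalization was not tested. edgeR on whole reads called 20 kinesins, with the same call as limma in all 31.

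Replicate numbers did not pair the libraries, as same-numbered libraries correlated at 0.005, 0.0868 and -0.0764 in their deviations from the group means. A fit with the replicate block called 21 kinesins, 10 of them mitotic, and 2 transport kinesins higher, adding *KIF3A* (adjusted p = 0.0405).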
